A study of Juglans regia with 12 samples.

Results

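Flower buds of walnut (Juglans regia) hold a group of 8 microRNA (miRNA) families that are not shared by all land plants: miR479, miR530, miR1511, miR1515, miR2950, miR3267, miR5225 and miR9560. Their members were the sequences whose matched miRNA name carries one of these numbers, which gave 26 of the 931 sequences in the deposited miRNA table. The families were selected on these names and the single sequences on their total counts, with earlier results of these data known. In particular, the levels of miR2950 and miR530 in the sample groups had been seen, so their differences between groups are given here as a description with no test. Sequences with at least 60 counts over all libraries are described singly, which applies to 11 of the 26. The nearest sequence inside this limit had 74 counts and the nearest outside it had 58.

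The study compared an early-flowering, precocious walnut type with a late-fruiting type, and sequenced small RNA from 3 libraries of flower buds of each. The plants grew in a field in Aksu, Xinjiang, and no treatment or transgene is named. By their labels, buds of the precocious type were at the stage Early flower and those of the other at Late flower, so walnut type and bud stage cannot be told apart. They do not say whether the 3 replicates came from separate trees, and p-values therefore measure only the spread between these libraries, which may be technical. No tissue marker can be read from a miRNA table, so the labelled tissue was not checked.

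Plant miRNAs are cut from hairpin precursors by a Dicer-like enzyme, which leaves a duplex of a guide strand and its opposite strand. The guide is loaded into an Argonaute protein and pairs almost along its whole length with a target mRNA, which is then cut or silenced. Families such as miR156 and miR172 are old and abundant, while younger families occur in fewer lineages and are often weakly expressed. Among those described here, miR530 of rice targets a gene for a PLUS3-domain protein and limits grain yield. In legumes, miR1515 targets the mRNA of Dicer-like 2. In common bean, miR1511 targets the mRNA of an aluminium-tolerance transporter. miR479 resembles miR171, whose targets are GRAS-domain transcription factors of the HAM type that act in meristems.

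The most abundant sequence of each family is shown first, since the family sums rest on it. Capitals mark the seed, bases 2 to 8 from the 5′ end, and T stands for U as in the deposited table.
jre-MIR530-6: tGCATTTGcacctgcacctct
jre-undef-56 (miR9560): aCAGGCGGtggaacaaatatg
jre-MIR2950-1: tTCCATCTcttgcacactgga
jre-MIR171_2-4 (miR479): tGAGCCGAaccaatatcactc
jre-MIR1515-1: tCATTTTTgcgtgcaatgatcc
jre-MIR1511-1: aCCTGGCTctgataccatgtg
jre-undef-91 (miR3267): tCTGTCGCaggtgagatg
jre-MIR5225-1: tCTGTCGCaggtgagatggt

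The names miR3267 and miR5225 cover 1 stretch of sequence. The miR3267 sequence, matched to cotton, is the first 18 bases of the miR5225 sequence, matched to apple, with 0 mismatches, and both have the seed CTGTCGC. The seed GAGCCGA of miR479 also occurs in 2 sequences named miR171, which hold 34 counts together. The other seeds of the 26 members occur in 0 sequences outside them. Of the member counts, 96.6% are in sequences that begin with T, against 91.3% of the other listed counts. Sequences of 21 bases hold 99.0% of member counts, against 85.1% of the others. Both member percentages mainly describe miR530, which holds 71907 of the 76891 member counts. By sequence, 19 of the 26 members begin with T and 14 have 21 bases. Of the 11 members described singly, jre-MIR1515-1 has 22 bases, jre-undef-186 and jre-undef-91 have 18, and jre-undef-56 and jre-MIR1511-1 begin with A.

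Further forms differ from these in ways that the results below turn on. The first 2 belong to miR530, the third is a short form of miR2950, and the last 2 are the opposite strands of miR530 and miR2950.
jre-MIR530-2: tGCATTTGcacctgcacctat
jre-MIR530-5: tCTGCATTtgcacctgcacct
jre-undef-186 (miR2950): tTCCATCTcttgcacact
jre-MIR530-7: aGGTGCAGgtgcagttgcagg
jre-MIR2950-2: tGGTGTGCatgggatggaata

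Counted from the 5′ end of jre-MIR530-6, jre-MIR530-2 differs from it by C20A and has the same seed. jre-MIR530-5 starts 2 bases earlier and matches both of them over 19 bases with 0 mismatches, so its seed is CTGCATT in place of GCATTTG. jre-MIR530-7 lies opposite jre-MIR530-6 with 17 Watson-Crick and 1 G-U pair over 19 positions. It leaves an overhang of 2 bases at each 3′ end, the form of a Dicer product. jre-MIR2950-2 lies opposite jre-MIR2950-1 with 15 Watson-Crick and 3 G-U pairs over 19 positions and the same overhangs of 2 bases. The pairs of miR479 and miR9560, given below, did not have 2 bases at both ends. The opposite strands were rare, with 54 counts against 41420 for the miR530 pair and 17 against 1141 for the miR2950 pair.

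The members held 76891 counts, or 2.48% of all listed miRNA counts. Counts of listed miRNAs were 309697, 611620 and 646408 in the 3 early-flowering libraries, against 614838, 447102 and 473151 in the late-flowering ones. Levels are given as CPM, the count of a sequence scaled to a common library total with TMM factors. A count of 3, the upper limit that a count of 0 allows, stands for 4.76 to 10.3 CPM, and it covers counting error only. Early-flowering replicate 1, the library with the lowest total, stood apart from replicates 2 and 3 of its type in several families. Relative to the mean of those 2 libraries, its level was 4.83 times as high for miR9560, 2.61 times for miR479, 2.20 times for miR530 and 2.08 times for miR1515. It was 1.08 times as high for miR2950 and 0.238 times for miR5225. Differences between the bud types are therefore given with and without this library.

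**Figure D1:**
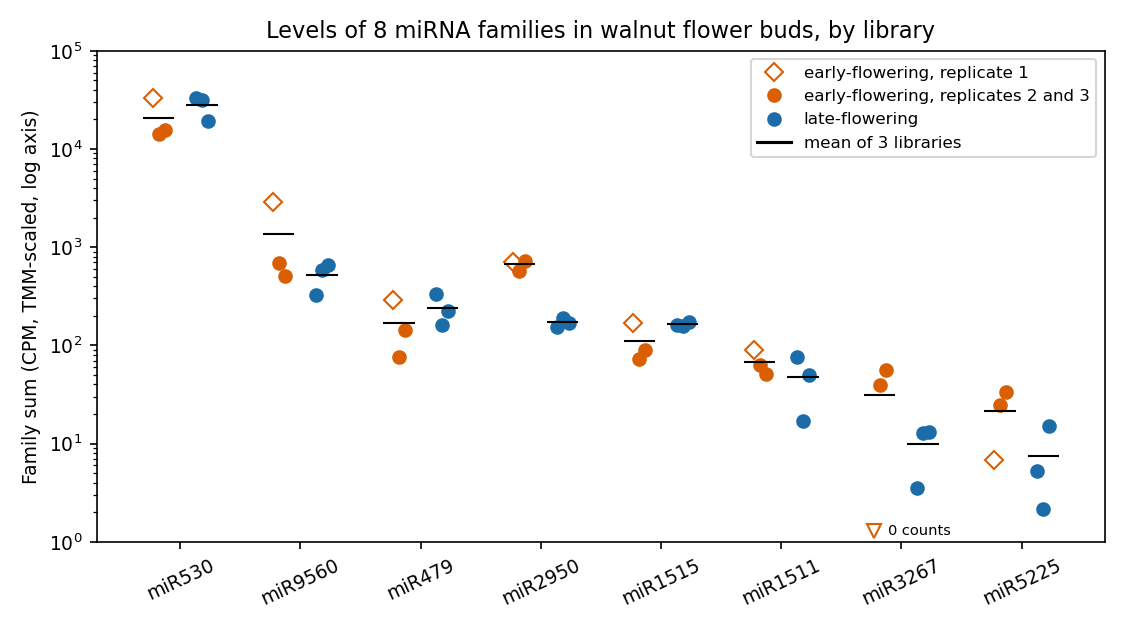
Level of each family sum in CPM (log axis) in 3 early-flowering (orange) and 3 late-flowering (blue) libraries, with the mean of each type as a black bar. The open diamonds are early-flowering replicate 1, which lies above the other 2 early-flowering libraries for miR530, miR9560, miR479, miR1515 and miR1511 and had 0 counts of miR3267.

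miR530 was the most abundant of the 8 families and ranked 8 by total counts among the 345 families of the table. Its sum stood at 32678, 14036 and 15635 CPM in early-flowering replicates 1 to 3 and at 33109, 31540 and 19449 CPM in the late-flowering ones. Early-flowering replicates 2 and 3 lay below all late-flowering libraries, and replicate 1 lay among them, so the groups overlapped. The means were 20783 ± 10332 and 28032 ± 7475 CPM (SD, n = 3 each), with a log2 fold change, early minus late, of −0.43 (SE 0.38). Without early-flowering replicate 1 it was −0.95 (SE 0.31). In bulk tissue, fewer cells of a type and less RNA per cell cannot be told apart.

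The 4 miR530 sequences over the limit did not move alike. jre-MIR530-6 was at 19774, 8084 and 11438 CPM in early-flowering buds, against 19118, 15625 and 9989 CPM in late-flowering buds, with overlapping groups and a log2 fold change of −0.19 (SE 0.37). jre-MIR530-2 was at 11507, 4797 and 3227 CPM against 13032, 15020 and 8748 CPM (log2 −0.91, SE 0.46). Its highest early-flowering library exceeded its lowest late-flowering one, and without replicate 1 the groups no longer overlapped (log2 −1.67, SE 0.32). jre-MIR530-5, the form shifted by 2 bases, was higher in every early-flowering library, at 1177, 1049 and 860 CPM against 723, 715 and 617 CPM (log2 0.59, SE 0.23). jre-MIR530-9, which differs from jre-MIR530-6 by C20T, was at 110, 67.0 and 60.3 CPM against 147, 127 and 69.1 CPM (log2 −0.56, SE 0.38), with overlapping groups. Without early-flowering replicate 1 the log2 fold changes were −0.63 (SE 0.32) for jre-MIR530-6, 0.43 (SE 0.24) for jre-MIR530-5 and −0.88 (SE 0.38) for jre-MIR530-9.

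Shares within the family need no scaling between libraries. Of the counts of jre-MIR530-2 and jre-MIR530-6 together, the A form at position 20 took 36.8%, 37.2% and 22.0% in early-flowering buds, against 40.5%, 49.0% and 46.7% in late-flowering buds. Every early-flowering share was below every late-flowering one, and the means were 32.0 ± 8.67% and 45.4 ± 4.38% (SD, n = 3 each). The exact 95% binomial interval of the highest early-flowering share, 36.2% to 38.3%, did not reach that of the lowest late-flowering share, 39.8% to 41.3%. The shifted form jre-MIR530-5 took 3.60%, 7.47% and 5.50% of the family in early-flowering buds, against 2.18%, 2.27% and 3.17% in late-flowering buds. Every early-flowering share was above every late-flowering share. Here, however, the exact 95% binomial interval of the lowest early-flowering share, 3.23% to 3.99%, overlapped that of the highest late-flowering share, 2.84% to 3.53%. Without early-flowering replicate 1 the early-flowering means were 29.6% for the A form and 6.49% for the shifted form. jre-MIR530-6 itself took 60.5%, 57.6% and 73.2% against 57.7%, 49.5% and 51.4%, where the groups overlapped. Early-flowering replicate 3 had the highest share of jre-MIR530-6 and the lowest of jre-MIR530-2 of the 6 libraries. The A form and the shifted form were picked out after their values were seen, and binomial intervals cover counting error only.

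**Figure D2:**
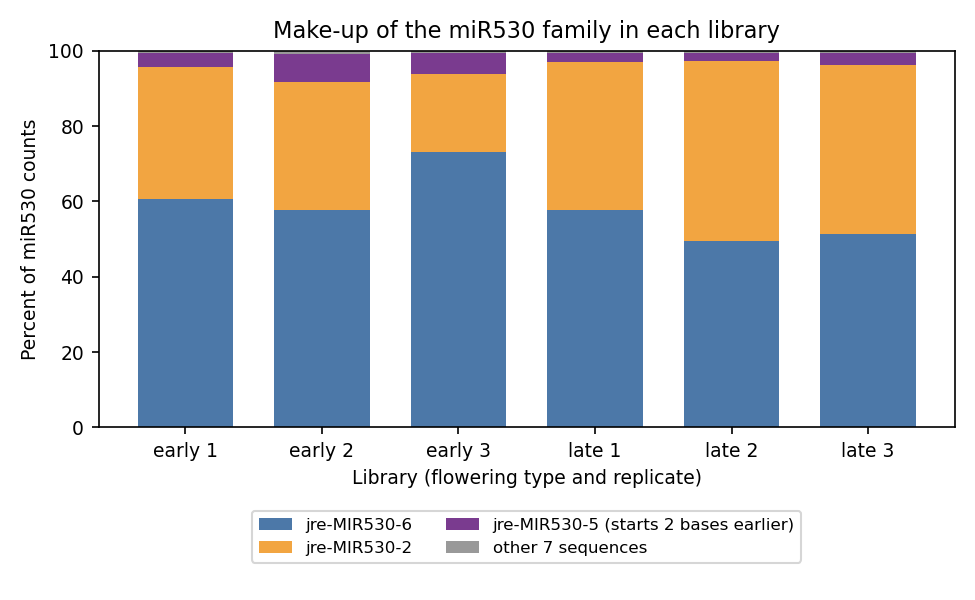
Make-up of the miR530 counts of each library in percent, for jre-MIR530-6, jre-MIR530-2, jre-MIR530-5 and the other 7 sequences. The jre-MIR530-2 share of the family is 20.6% to 35.2% in the early-flowering libraries and 39.4% to 47.6% in the late-flowering ones.

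The other 6 miR530 sequences were minor, with 1 to 54 counts each over all libraries. They comprise the opposite strand, jre-MIR530-3 with 47 counts, jre-MIR530-1 with 46, jre-MIR530-8 with 26, jre-MIR530-4 with 2 and jre-MIR530-10 with 1. Apart from the opposite strand, each has the seed GCATTTG and carries 1 to 3 substitutions relative to jre-MIR530-6, all from position 17 on.

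miR2950 separated the bud types in all libraries. Its sum was at 702, 578 and 724 CPM in early-flowering buds, against 154, 191 and 168 CPM in late-flowering buds, with a wide gap between the groups. The level of early-flowering replicate 1 lay between those of the other 2 libraries of its type. The mean ratio was 3.90, or 3.80 without replicate 1, and the log2 fold change was 1.96 (SE 0.28) with that library and 1.89 (SE 0.37) without it. The 21-base form, jre-MIR2950-1, was at 650, 495 and 643 CPM against 144, 180 and 146 CPM, so the groups were far apart. The 18-base form, jre-undef-186, was at 34.4, 75.1 and 74.6 CPM against 8.78, 8.58 and 20.6 CPM. Without early-flowering replicate 1 their log2 fold changes were 1.82 (SE 0.28) and 2.50 (SE 0.48), against 1.93 and 2.29 with it. The 18-base form is matched to a spruce miRNA and has no family in the deposited Family column. The opposite strand, jre-MIR2950-2, had 5, 5 and 4 counts in the early-flowering libraries and 1, 1 and 1 in the late-flowering ones. In CPM, each of the 3 sequences was higher in every early-flowering library than in any late-flowering one. Of all 243 tested sequences, 19.8% lay higher in this way. jre-MIR2950-2 did not pass the filter on low counts, and its late-flowering levels were below that of 3 counts. The difference in miR2950 was known beforehand, so this is a description only.

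The 18-base form made up 5.03%, 13.2% and 10.4% of the 18- and 21-base forms of miR2950 in early-flowering buds, against 5.75%, 4.55% and 12.4% in late-flowering buds. The groups overlapped, and the means were 9.53 ± 4.15% and 7.55 ± 4.21% (SD, n = 3 each). The early-flowering mean without replicate 1 was 11.8%. Early-flowering replicate 1 also had the lowest share of 18-base sequences among all listed counts, at 0.176%, against 0.196% to 0.363% in the other libraries. Its part in the levels of 18-base members was not tested. The number of miR530 counts per count of miR2950 inside a library was 46.6, 24.3 and 21.6 in early-flowering buds, against 214, 165 and 116 in late-flowering buds. The 3 early-flowering ratios, replicate 1 included, lay below the 3 late-flowering ones, while the groups overlapped for miR530 alone. The levels of both families were known beforehand, so the ratio is a description only.

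For the 6 families other than miR2950 and miR530, edgeR's quasi-likelihood test was read from a fit of all families. With all libraries 4 of the 6 could be tested, and 0 of these passed an adjusted p of 0.05, where 13.5% of all 37 tested families passed. At an unadjusted edgeR p under 0.05 there were also 0, and DESeq2 and limma-trend called 0 each by adjusted p. By DESeq2, miR9560 had an unadjusted p of 0.0461 (DESeq2 adjusted p = 0.137). Without early-flowering replicate 1, miR479 and miR1515 passed as lower in early-flowering buds, and miR9560 and miR1511 did not pass. Both passed in no other setting, and nothing is read from that, since replicate 1 lay inside their late-flowering range. In that fit 45.2% of 42 tested families passed, 23.8% as higher and 21.4% as lower. miR3267 and miR5225 entered that fit mainly through the 2 libraries where they are high, so they are not counted. Among single sequences, 12 members were tested and 2 passed, both higher and both miR2950. Of all 243 tested sequences 11.5% passed, 4.94% as higher. Nothing is read from that count, since the difference in miR2950 was known beforehand. With early-flowering replicate 1 left out, 20.1% of 268 sequences passed. Outside miR2950 and miR530 that fit tested 7 member sequences, of which 2 passed, jre-MIR1515-1 and jre-undef-91. The latter entered the fit through the libraries where it is high, jre-MIR1515-1 passed in no other setting, and nothing is read from either. The groups did not overlap for 3 of the 12 tested members, jre-MIR2950-1, jre-undef-186 and jre-MIR530-5, all higher in early-flowering buds. Over all tested sequences this held for 37.4%, with 19.8% higher. Median log2 fold changes were 0.14 over the 12 members and 0.13 over all tested sequences.

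**Figure D3:**
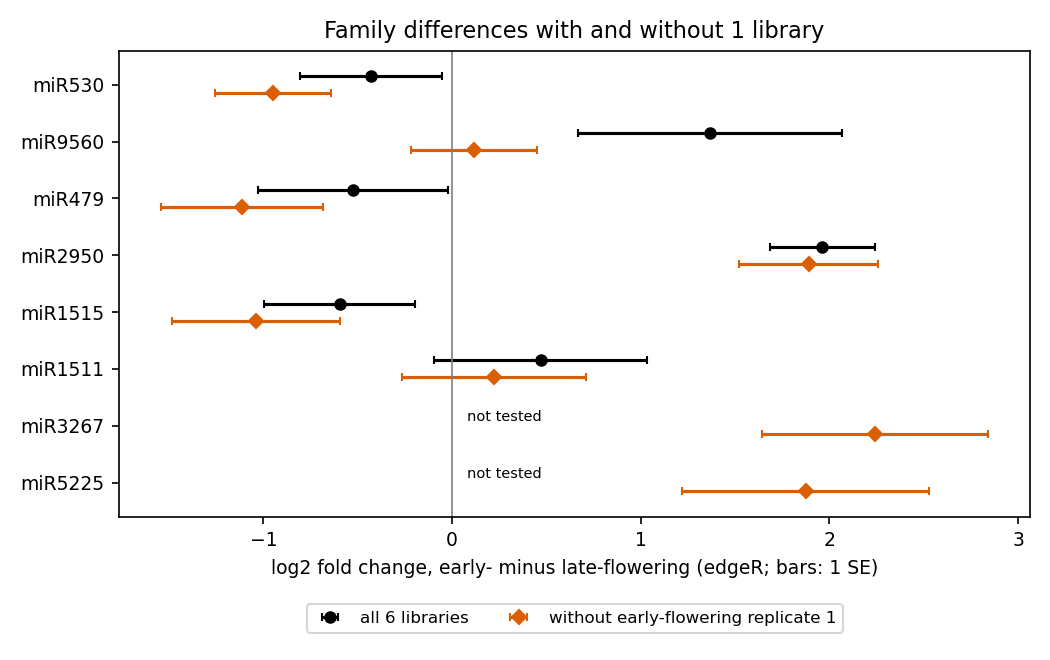
log2 fold change of each family, early- minus late-flowering, with 1 SE from the edgeR fit, for all 6 libraries (black circles) and without early-flowering replicate 1 (orange diamonds). Values for miR2950 stay near 1.9 in both, miR9560 moves from 1.37 to 0.12, and miR3267 and miR5225 passed the filter on low counts without that library.

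miR479, the relative of miR171, did not pass with all libraries, and its family sum passed as lower in early-flowering buds only when replicate 1 was left out. Its sum was at 289, 76.8 and 144 CPM in early-flowering buds, against 335, 161 and 224 CPM in late-flowering buds. Early-flowering replicate 1 lay inside the late-flowering range, and the other 2 libraries lay below it. The log2 fold change was −0.53 (SE 0.51, edgeR adjusted p = 0.525) with all libraries and −1.11 (SE 0.43, edgeR adjusted p = 0.0276) without replicate 1. Its main sequence alone, jre-MIR171_2-4, did not pass in that fit (log2 −1.14, SE 0.38, edgeR adjusted p = 0.0650). The family sum passed in no other setting, and leaving out any other library gave log2 fold changes of −0.79 to −0.21. Since the pass rests on leaving out the library that goes against the difference, nothing is read from it.

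Almost all of miR479 was 1 sequence, jre-MIR171_2-4, with 601 of 608 counts. The deposited Family column files it under MIR171_2, and the alignment shows how close it is. The most abundant miR171 sequence within 2 substitutions of it is the following, with 533 counts.
jre-MIR171_2-2: tTGAGCCGcgccaatatcact
jre-MIR171_2-4 starts 1 base later than jre-MIR171_2-2 and differs from it over 20 shared bases by C9A and G10A, counted from the 5′ end of jre-MIR171_2-2. The later start and C9A together give it the seed GAGCCGA in place of TGAGCCG. When all sequences filed under MIR171_2 were summed, the log2 fold change was 0.64, opposite in sign to that of miR479 alone. That sum takes in jre-MIR171_2-10, matched to a 5p arm, with 26176 counts against 601 for jre-MIR171_2-4. The 2 sequences differ by 10 mismatches over 18 bases, so the sum does not describe the close relatives of miR479 alone. The other miR479 sequence, jre-MIR171_2-15, lies opposite the main form with 17 Watson-Crick and 2 G-U pairs over 20 positions. The 3′ overhangs were 2 bases on jre-MIR171_2-15 and 1 on the main form. jre-MIR171_2-15 had 2, 1 and 2 counts in early-flowering buds, against 2, 0 and 0 in late-flowering buds.

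miR1515, which targets Dicer-like 2 mRNA in legumes, had steady levels in late-flowering buds. Its sum was at 160, 159 and 172 CPM there and at 169, 71.9 and 90.5 CPM in early-flowering buds. Early-flowering replicate 1 fell inside the narrow late-flowering range, and the other 2 early-flowering libraries were far below it. The log2 fold change was −0.60 (SE 0.40, edgeR adjusted p = 0.341), or −1.04 (SE 0.44, edgeR adjusted p = 0.0455) without replicate 1. Leaving out any other library gave −0.67 to −0.43, and the family passed in no other setting. Replicate 1 goes against the difference, so nothing is read from the pass without it. The family was nearly all jre-MIR1515-1, with 404 of 407 counts. The other 3 counts belonged to jre-MIR1515-2, which equals it without 1 base.

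miR9560 was the second most abundant of the families in mean level, and its difference rested on 1 library. Its sum was at 2879, 684 and 508 CPM in early-flowering buds, against 328, 579 and 665 CPM in late-flowering buds. Early-flowering replicate 1 was far above all other libraries, and replicates 2 and 3 lay inside or just above the late-flowering range. The log2 fold change was 1.37 (SE 0.70, edgeR adjusted p = 0.232), and without replicate 1 it was 0.12 (SE 0.34, edgeR adjusted p = 0.805). jre-undef-56, matched to the 5p arm of a citrus miRNA, held 2314 of the 2389 counts. A 24-base form that extends it at the 3′ end, jre-undef-44, had 21, 8 and 3 counts in early-flowering buds, against 2, 1 and 3 in late-flowering buds. With no filter on low counts it passed (edgeR adjusted p = 0.0116), with 21 of its 38 counts in early-flowering replicate 1, and nothing is read from that. The 3p sequence, jre-undef-55, had 12, 4 and 2 against 7, 8 and 4 counts. Aligned without gaps, it lay opposite jre-undef-56 with 14 Watson-Crick and 1 G-U pair, 6 mismatches and overhangs of 0 bases. The share of jre-undef-56 in the family was 97.2 ± 1.19% against 96.6 ± 1.42% (SD, n = 3 each; exact two-sided permutation p = 0.7), and the early-flowering mean without replicate 1 was 97.8%.

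miR5225 and miR3267, which are longer and shorter forms of the same sequence, were higher in early-flowering replicates 2 and 3 than in every other library. miR3267 had 0, 24 and 35 counts in the early-flowering libraries and 2, 6 and 7 in the late-flowering ones, or 0, 39.2 and 55.6 CPM against 3.51, 12.9 and 13.1 CPM. In replicate 1 the 0 allows a level of up to 10.3 CPM. miR5225 had 2, 15 and 21 counts against 3, 1 and 8, or 6.88, 24.5 and 33.3 CPM against 5.27, 2.15 and 14.95 CPM. Neither family passed the filter on low counts with all libraries. Without replicate 1 both passed it, mainly through early-flowering replicates 2 and 3, the libraries where they are high, and each late-flowering count was below 10. Their log2 fold changes in that fit, 2.24 (SE 0.60) for miR3267 and 1.87 (SE 0.65) for miR5225, are therefore given with no test. Summed, a step chosen after the data were seen, they gave 1.68 (SE 0.82, edgeR adjusted p = 0.217) with all libraries. Among the settings run, the sum passed only without replicate 1, the library that goes against the difference (log2 2.10, edgeR adjusted p = 8.5e-04), and nothing is read from that. Without early-flowering replicate 3 it was 1.01 (edgeR adjusted p = 0.484).

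The 18-base form, named miR3267, made up 61.5% and 63.6% of the pair jre-undef-91 and jre-MIR5225-1 in early-flowering replicates 2 and 3, and 0 of 2 counts in replicate 1, with an exact 95% interval of 0% to 84.2%. It made up 40.0%, 85.7% and 46.7% in the late-flowering libraries. The counts behind these shares are small, and the exact 95% interval of the first late-flowering value runs from 5.27% to 85.3%. A second miR5225 sequence, jre-MIR5225-2, differs from jre-MIR5225-1 by A9G and had 1 count in all.

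**Figure D4:**
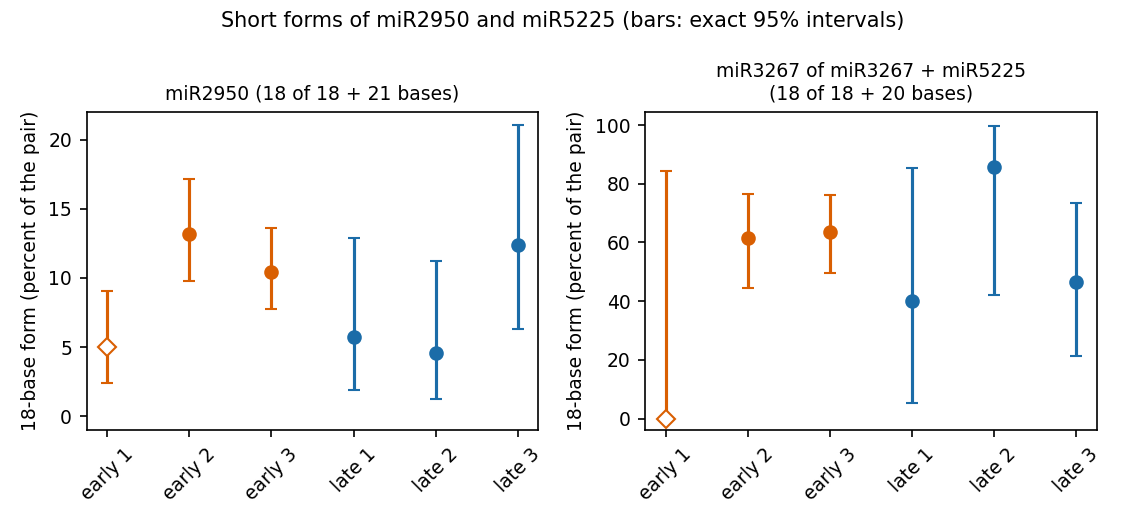
Share of the 18-base form within the miR2950 pair (left) and the miR5225 and miR3267 pair (right) in each library, with exact 95% binomial intervals. Early-flowering libraries are orange, with replicate 1 as an open diamond, and late-flowering ones blue. The shares of the types overlap in both pairs.

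miR1511, whose bean counterpart targets a transporter mRNA, showed no difference beyond its spread. Its sum was at 89.4, 63.7 and 50.8 CPM in early-flowering buds, against 75.5, 17.2 and 50.5 CPM in late-flowering buds, with overlapping groups. The log2 fold change was 0.47 (SE 0.57, edgeR adjusted p = 0.587), or 0.22 (SE 0.49, edgeR adjusted p = 0.735) without early-flowering replicate 1. Late-flowering replicate 2 had the lowest value, with 8 counts in the family, and without it the log2 fold change was 0.05. Without late-flowering replicate 1 it was 0.97. The main form, jre-MIR1511-1, had 14, 24 and 21 counts in early-flowering buds, against 27, 1 and 10 in late-flowering buds. jre-MIR1511-2 has 18 bases, starts 1 base later than jre-MIR1511-1 and carries C2G and T4A, counted from the 5′ end of the latter. It had 11, 12 and 8 against 11, 6 and 10 counts. jre-MIR1511-3, which carries T10C and ends after 18 bases, had 20 counts in all. The share of jre-MIR1511-1 in the family was 60.3 ± 5.98% against 37.4 ± 25.1% (SD, n = 3 each; exact two-sided permutation p = 0.3), and the early-flowering mean without replicate 1 was 63.6%.

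The order of mean levels differed in 1 place between the types. In early-flowering buds it was miR530, miR9560, miR2950, miR479, miR1515, miR1511, miR3267 and miR5225. In late-flowering buds miR479 stood before miR2950. Without early-flowering replicate 1, miR2950 stood before miR9560 in early-flowering buds, and the order was otherwise as given. The range of miR530 was clear of that of the next family in both types. In early-flowering buds miR2950 was also clear of miR479, and the other neighbours overlapped. In late-flowering buds the neighbours from miR9560 to miR1515 overlapped in pairs, as did miR3267 and miR5225. Read counts of small RNAs also depend on ligation and amplification of each sequence, so the order is one of read levels.

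Families outside the group with a similar profile were sought among 31 tested families, by Pearson's r of log2 CPM over the 6 libraries, which share scaling and depth; r was not computed without early-flowering replicate 1, which leaves 5. The 3 nearest to miR2950 were miR172 (r = 0.95), miR319 (r = 0.94) and miR394 (r = 0.82). The 3 nearest to miR530 were miR166 (r = 0.91), miR403 (r = 0.90) and miR408 (r = 0.88). For each of the latter, early-flowering replicate 1 was above the other 2 early-flowering libraries, as for miR530. miR403 was at 31645 CPM in replicate 1 and at 17080 and 20889 CPM in the other 2.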

How the data were processed

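The table deposited by the authors gives, for every mature miRNA sequence, a raw count in each library and the best matching miRNA name from other plants. FastQC, HISAT2, Cufflinks and DESeq2 are listed, with no role, in the submitters' processing notes. The steps that trimmed, mapped and named the small RNA reads, and the genome build, were not given in the sources used here, and genome positions were not analysed here. The library protocol in the labels describes a poly(A) mRNA kit for every sample, which leaves the building of the small RNA libraries undescribed. Totals here are sums over the listed miRNAs, which is less than the full depth of a library. The mRNA table was not used here.

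Family sums follow the number in each matched name; miR156 was counted with miR157. edgeR 4.0.16 in R 4.3.3 was fitted to all sequences and to all family sums. The fits used TMM factors from the sequences, filterByExpr with a minimum count of 10, robust quasi-likelihood tests and Benjamini-Hochberg adjustment at 0.05. Of the sequences, 243 were tested and 688 were not, and of the families 37 and 308; of the members, 12 of 26 sequences and 6 of 8 families passed the filter. Fold changes are early minus late. Alternatives used DESeq2 1.42.0, limma 3.58.1, other scalings and filters, the replicate number as a block, and fits leaving out 1 library at a time. The sequence fit was tested on simulated counts with the same spread for all sequences and no deviating library. That does not cover the family sums or a library such as early-flowering replicate 1.

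Members and lists were chosen with earlier results of these data known. The rule for named features took all 8 families and every member sequence with at least 60 counts, and the 3 families most like miR2950 and miR530.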

Additional observations from a re-analysis of the deposited data

How the results depend on the processing

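Over the alternatives run for each, the sign of the log2 fold change of miR2950 (1.71 to 2.03), miR530 (−0.95 to −0.19), miR1515 (−1.04 to −0.43), miR9560 (0.12 to 1.54) and miR1511 (0.05 to 0.97) held. Except for miR2950, the value nearest 0 lay within 1 SE of 0, with SE 0.37 for miR530, 0.44 for miR1515, 0.34 for miR9560 and 0.53 for miR1511. miR9560 has no sum in the deposited Family column. The sign for miR479 held except with that column (0.6429, edgeR adjusted p = 0.196), whose MIR171_2 sum takes in jre-MIR171_2-10 with 26176 counts. Leaving out single libraries moved jre-MIR530-6 between −0.627 and 0.0293. It was above 0 when early-flowering replicate 2 (0.000695) or late-flowering replicate 1 (0.0293) was dropped; the cause was not tested. Over the left-out libraries, 4 to 19 families and 2 to 54 sequences passed, against 5 and 28 with all. The highest numbers came without early-flowering replicate 1. Of member sequences 0 to 5 passed, against 2 with all. The 0 came without late-flowering replicate 3, where only 2 of all 265 tested sequences passed. The 2 with all libraries were both miR2950, and the 5 took in miR2950, miR530 and jre-undef-91, so nothing is read from these counts of members. With the replicate block 17 sequences passed, and the member calls were the same 2 of miR2950. Deviations of same-numbered libraries from their group means did not go together (correlations of −0.098, −0.076 and −0.34), and none was most like its own number. The jre-undef-56 share of miR9560 differed by 0.581 percentage points, and by −0.0325 and −0.14 without early-flowering replicate 3 and late-flowering replicate 1 (−0.14 to 1.28 over all left-out libraries). Low counts limit miR5225, miR3267 and miR1511.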
